A study of Mus musculus with 6 samples.

Results

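RNA of mouse sciatic nerve, the large nerve of the hind limb, was examined for 10 genes of glycolysis and lactate transport. They were taken by symbol from a table of 24421 genes: Slc2a1, Hk1, Hk2, Pfkm, Aldoa, Aldoc, Gapdh, Ldha, Slc16a1 and Slc16a3. The study compared 3 libraries labelled as a YAP and TAZ double cKO with 3 libraries labelled wild type (WT), which the series' design text describes as control mice. The labels do not spell out cKO. On age, strain, Cre driver, deleted exons and pooling the sources used here say nothing. YAP and TAZ, encoded by Yap1 and Wwtr1, are transcriptional co-activators of the Hippo pathway.

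Glycolysis splits glucose into pyruvate, and lactate dehydrogenase interconverts pyruvate and lactate. Glucose enters cells through GLUT transporters, and lactate and pyruvate cross membranes with protons through monocarboxylate transporters (MCTs). In peripheral nerve, GLUT1 is known from the perineurium and the endothelium of the blood-nerve barrier, and MCT1 from Schwann cells and the perineurium. Glial lactate is held to be one fuel of axons. Skeletal muscle, which borders the nerve, is rich in glycolytic enzymes and has muscle forms of several of them.

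Gene counts per library ran from 24651262 to 47044158, every WT library being deeper than every cKO library. Yap1 stood at 120.4, 123.7 and 121.7 CPM (counts scaled to library size with TMM factors) in WT 1, 2 and 3 and at 108.1, 108.8 and 102.6 CPM in the cKO libraries. Wwtr1 stood at 275.5, 284.2 and 253.8 CPM in WT and at 367.1, 337.4 and 372.0 CPM in cKO. Yap1 was not called changed (edgeR adjusted p = 0.145), and Wwtr1 was called higher (edgeR adjusted p = 0.0208), a call lost without cKO 3, WT 1 or WT 2 (edgeR adjusted p = 0.117, 0.0914 and 0.0518). Counts over whole genes do not show whether an exon was deleted, so directions rest on the labels. Xist, the transcript of the inactive X chromosome, ran from 133.9 to 258.0 CPM and Ddx3y of the Y chromosome from 8.93 to 47.96 CPM, so every library held RNA marks of females and of males. Ddx3y stood at 20.8, 44.5 and 48.0 CPM in WT 1, 2 and 3 and at 8.93, 18.7 and 25.7 CPM in cKO 1, 2 and 3. The groups overlapped, with cKO 1 and cKO 2 lowest. The part of sex in the differences was not tested. The p-values measure the spread between these libraries. Skeletal muscle transcripts separated the groups. Acta1, the muscle actin, stood at 509.6, 133.8 and 378.6 CPM in WT 1, 2 and 3 and at 1238, 2717 and 1530 CPM in cKO 1, 2 and 3. Ttn, the giant sarcomere protein titin, stood at 35.4, 9.35 and 27.8 CPM in WT and at 108.7, 157.4 and 153.5 CPM in cKO. Both were called higher (log2 fold change 2.42 ± 0.46 and 2.53 ± 0.40, SE, n = 3 per group). Of 15 muscle markers, 13 were higher and 0 lower by edgeR, DESeq2 calling 14 and 0 and limma-voom 12 and 0, with 15 higher and 0 lower at an unadjusted edgeR p under 0.05. Their summed level ran from 406.5 to 1563 CPM in WT and from 4076 to 9045 CPM in cKO, with no marker at 0 in all libraries.

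Of the 10 genes, 5 were higher in the cKO libraries (Pfkm, Aldoa, Gapdh, Ldha and Slc16a3), 1 was lower (Aldoc) and 4 did not pass (Slc2a1, Hk1, Hk2 and Slc16a1). Calls are edgeR quasi-likelihood tests with a Benjamini-Hochberg adjusted p under 0.05 over all 14789 genes tested, and all 10 passed the filter on low counts. Over all genes tested, 4.77% were called higher, 6.17% lower and 10.9% either way. Of the calls 43.6% were thus higher, against 67.7% where libraries were scaled by total counts. DESeq2 called 15.2% (6.74% higher, 8.5% lower) and limma-voom 11.1% (4.95% higher, 6.16% lower), and both also called 5 of the 10 genes higher and 1 lower. The median log2 fold change was 0.38 over the 10 genes and 0.022 over all genes. The groups did not overlap for the same 6 genes, and for 31.1% of all genes tested (15.3% higher, 15.8% lower). In counts of whole nerve, more cells of a type and more RNA per cell cannot be told apart.

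**Figure D1:**
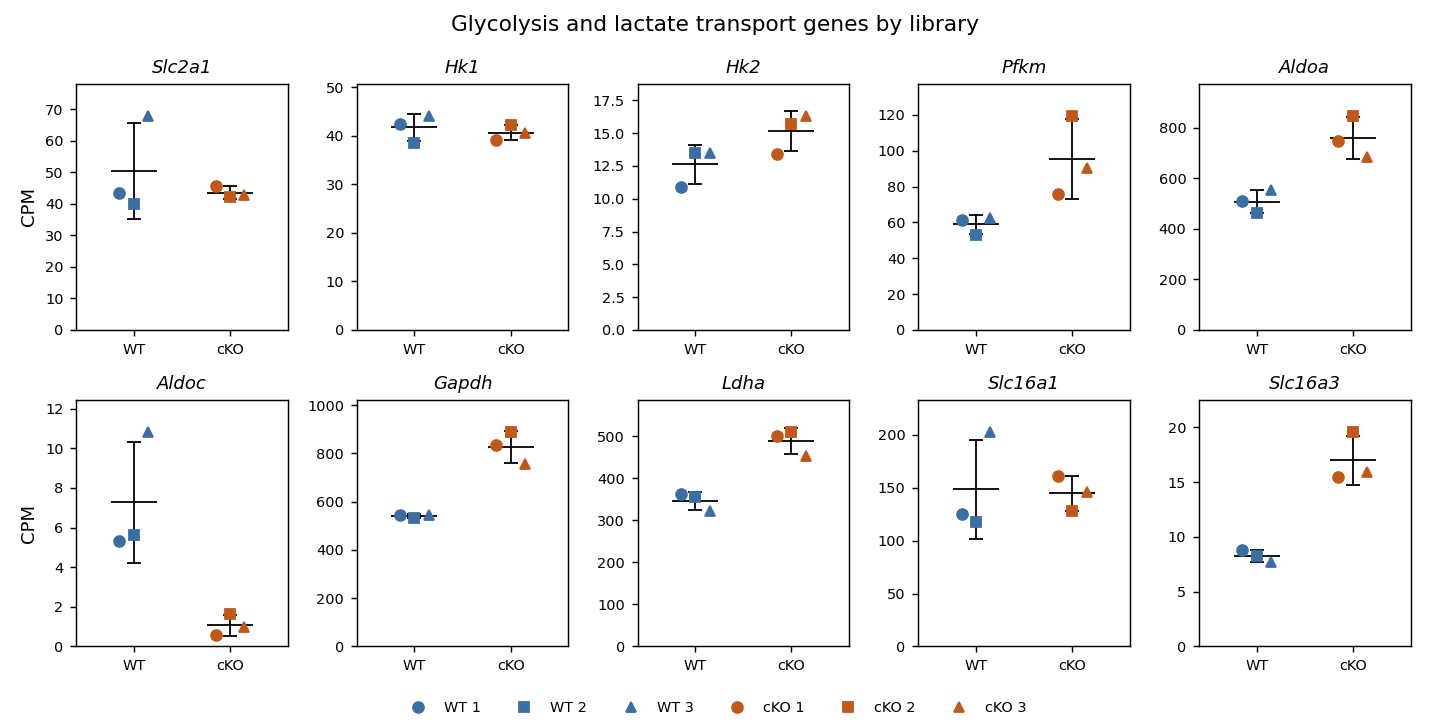
CPM of each of the 10 genes in the 3 WT libraries (blue) and the 3 cKO libraries (orange), with circles, squares and triangles for libraries 1, 2 and 3, and black lines for the group mean ± SD. Every cKO library lies above every WT library for Pfkm, Aldoa, Gapdh, Ldha and Slc16a3 and below for Aldoc, while WT 3 stands high for Slc2a1 (68.0 CPM) and Slc16a1 (202.2 CPM).

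The members for glucose uptake and its first phosphorylation, Slc2a1, Hk1 and Hk2, did not pass the test. Slc2a1 (mm10 chromosome 4, 119108711 to 119137983, plus strand) encodes GLUT1. It stood at 43.3, 40.0 and 68.0 CPM in WT 1, 2 and 3 and at 45.8, 42.3 and 42.8 CPM in cKO 1, 2 and 3. WT 3 lay above all other libraries, and the other 5 lay between 40.0 and 45.8 CPM. The log2 fold change was -0.21 with a 95% interval from -0.62 to 0.21 (edgeR adjusted p = 0.548), and without WT 3 it turned to 0.042. Hk1 (chromosome 10, 62268855 to 62379908, minus strand), the hexokinase most tissues use, stood at 42.5, 38.6 and 44.1 CPM in WT and at 39.1, 42.3 and 40.4 CPM in cKO. The groups overlapped, with a 95% interval of the log2 fold change from -0.24 to 0.17, and the direction flips to 0.087 with total counts. Hk2 (chromosome 6, 82725025 to 82774454, minus strand) is the hexokinase of muscle and of cells with high glucose use. It stood at 10.9, 13.5 and 13.5 CPM in WT and at 13.4, 15.7 and 16.3 CPM in cKO, where cKO 1 fell within the WT range (log2 0.26, 95% interval -0.06 to 0.59, edgeR adjusted p = 0.304).

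In WT 3, markers of the cells that border the nerve fibres also stood high beside Slc2a1 and Slc16a1. The endothelial markers summed to 267.4 to 418.8 CPM in WT and 377.2 to 430.8 CPM in cKO, with 0 of 6 called (edgeR, DESeq2 and limma-voom; 2 higher at an unadjusted edgeR p under 0.05) and 4 of 6 called higher by edgeR without WT 3. Cdh5, the endothelial cadherin, was at 134.9 CPM in WT 3 against 102.5 and 93.3 CPM in WT 1 and WT 2. Cldn1, a perineurial tight junction protein, was at 123.4 CPM against 87.1 and 77.8 CPM. The perineurial markers summed to 166.8 to 230.8 CPM in WT and 170.6 to 201.5 CPM in cKO, with 1 of 5 tested called lower, Itgb4, a call lost in the fits that left out 1 library except without cKO 2 (edgeR adjusted p from 0.051 to 0.123) and with total counts (0.0885). DESeq2 called 1 perineurial marker lower and 1 higher and limma-voom 1 lower and 0 higher, with 1 each way at an unadjusted edgeR p under 0.05. The adipocyte markers summed to 4.74 to 66.3 CPM in WT, Adipoq reaching 38.8 CPM in WT 3 against 2.66 and 5.50 CPM, and to 31.3 to 58.9 CPM in cKO. None of these 4 markers was called (edgeR, DESeq2 and limma-voom, 0 at an unadjusted edgeR p under 0.05), and 4 of 4 were called higher by edgeR without WT 3. Their part in the levels of Slc2a1 and Slc16a1 was not tested.

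The enzymes from phosphofructokinase to lactate dehydrogenase were higher where they passed the test, apart from Aldoc. Pfkm (chromosome 15, 98092589 to 98132451, plus strand) encodes the muscle form of phosphofructokinase, the committing step of glycolysis. It stood at 61.4, 52.7 and 62.5 CPM in WT 1, 2 and 3 and at 75.7, 119.5 and 90.4 CPM in cKO 1, 2 and 3. All cKO libraries were higher, by 1.62-fold in the fit, and cKO 2 was the highest (log2 0.69 ± 0.16, SE, edgeR adjusted p = 0.0233). The call was lost without cKO 2, cKO 3, WT 1 or WT 2 (edgeR adjusted p = 0.051, 0.0762, 0.0608 and 0.0884; over all alternatives it ran from 0.000682 to 0.988).

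Aldoa (chromosome 7, 126795234 to 126800751, minus strand), the aldolase of muscle and most other tissues, cleaves fructose bisphosphate. It stood at 509.8, 461.6 and 553.7 CPM in WT and at 746.8, 848.1 and 685.2 CPM in cKO. The groups did not overlap, and the cKO libraries were 1.50-fold higher (log2 0.58 ± 0.11, SE, edgeR adjusted p = 0.0126). The call was lost without WT 1 or WT 2 (edgeR adjusted p = 0.0594 and 0.0539; over all alternatives it ran from 3.23e-05 to 0.915). Gapdh (chromosome 6, 125161715 to 125166467, minus strand), the dehydrogenase that yields NADH, is often used as a reference gene. It stood at 545.0, 531.6 and 543.0 CPM in WT and at 835.4, 887.6 and 755.4 CPM in cKO. The WT libraries lay close together and all cKO libraries above them, 1.53-fold higher in the fit (log2 0.61 ± 0.09, SE, edgeR adjusted p = 0.00452). Gapdh has 77 other annotated genes with at least 95% identity over 300 bases or more, mostly outside the count table, so its reads may be split among copies. One listed copy, Gm12070, itself held 409.4, 374.8 and 404.3 CPM in WT and 581.2, 637.8 and 519.4 CPM in cKO. A sum over Gapdh and its 3 listed copies, chosen after seeing the data, gave 0.58 ± 0.10 on the log2 scale (edgeR adjusted p = 0.00737).

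Ldha (chromosome 7, 46841475 to 46855627, plus strand) encodes the M subunit of lactate dehydrogenase, which dominates in muscle and in tissues that make lactate. It stood at 362.4, 354.8 and 321.5 CPM in WT and at 501.7, 509.7 and 453.2 CPM in cKO. The lowest cKO library lay above the highest WT library, and the groups differed 1.41-fold (log2 0.50 ± 0.09, SE, edgeR adjusted p = 0.0112). Among the called members, the largest rise was that of Slc16a3 (chromosome 11, 120948480 to 120960868, plus strand), which encodes MCT4, the low-affinity lactate exporter of glycolytic cells. It stood at 8.81, 8.27 and 7.71 CPM in WT and at 15.5, 19.5 and 15.9 CPM in cKO. Every cKO library was well above the WT range, 2.05-fold in the fit (log2 1.04 ± 0.14, SE, edgeR adjusted p = 0.00295). Ldha has 3 near-identical annotated copies, with 0 of them in the count table. Ldha and Slc16a3 were called in each fit that left out 1 library (edgeR adjusted p at most 0.0428 and 0.0192).

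Slc16a1 (chromosome 3, 104638668 to 104658462, plus strand), which encodes MCT1, did not pass. It stood at 124.9, 117.6 and 202.2 CPM in WT and at 160.7, 127.9 and 145.6 CPM in cKO. WT 1 and WT 2 lay below all cKO libraries and WT 3 above them. Its 95% interval ran from -0.48 to 0.41 around -0.034 on the log2 scale (edgeR adjusted p = 0.948). It was above 0 without WT 3 (0.23, edgeR adjusted p = 0.222), without cKO 2, with total counts, with limma-voom and with the replicate block, and passed in none of these.

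Aldoc (chromosome 11, 78322968 to 78327781, plus strand), the aldolase best known from brain, was the 1 member that fell. It had 247, 226 and 429 reads in WT 1, 2 and 3 and 19, 42 and 31 reads in cKO 1, 2 and 3. Its levels were 5.34, 5.65 and 10.8 CPM in WT and 0.573, 1.64 and 0.974 CPM in cKO. The cKO libraries were all lower, by 6.94-fold in the fit (log2 -2.79 ± 0.42, SE, edgeR adjusted p = 0.00427), and the call held in each fit that left out 1 library (edgeR adjusted p at most 0.0342). Markers of myelinating Schwann cells fell beside it, 7 of 7 called lower, their summed level going from 79130 to 112000 CPM in WT to 19310 to 32040 CPM in cKO. The part of myelin RNA in the fall of Aldoc was not tested. Of 5 markers of the Schwann lineage, edgeR, DESeq2 and limma-voom each called 1 lower (Gfra3) and 0 higher, with 0 higher at an unadjusted edgeR p under 0.05, and edgeR called 1 higher without WT 3.

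The start regions of 4 of these genes are shown: Ldha, Gapdh and Slc16a3, which rose, and Aldoc, which fell. Pfkm and Aldoa also rose, and their windows are not shown. RefSeq windows on GRCm38.p6, from 250 bases before to 50 after a start, were found for all 10 genes, 18 windows in all. Each line gives the gene's own strand, 5′ to 3′. Capitals mark ACGTG or GCGTG on either strand, the core letters that hypoxia-inducible factors are known to bind, and the E-box CACGTG overlaps the first.
Slc16a3, chr11:120948817-120949116, plus strand: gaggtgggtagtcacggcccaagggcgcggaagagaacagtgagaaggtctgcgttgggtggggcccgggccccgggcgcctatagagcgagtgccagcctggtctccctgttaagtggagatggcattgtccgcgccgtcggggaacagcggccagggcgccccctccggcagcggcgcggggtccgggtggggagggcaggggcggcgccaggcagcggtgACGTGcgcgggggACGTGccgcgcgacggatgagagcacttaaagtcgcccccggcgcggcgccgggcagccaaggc
Ldha, upstream of 2 windows, chr7:46845554-46845853, plus strand: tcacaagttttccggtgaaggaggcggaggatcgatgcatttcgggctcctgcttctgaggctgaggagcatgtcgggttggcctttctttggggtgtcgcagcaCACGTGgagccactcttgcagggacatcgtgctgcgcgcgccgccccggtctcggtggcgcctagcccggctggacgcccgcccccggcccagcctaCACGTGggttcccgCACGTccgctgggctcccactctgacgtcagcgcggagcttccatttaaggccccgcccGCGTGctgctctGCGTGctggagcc
Gapdh, chr6:125165724-125166023, minus strand: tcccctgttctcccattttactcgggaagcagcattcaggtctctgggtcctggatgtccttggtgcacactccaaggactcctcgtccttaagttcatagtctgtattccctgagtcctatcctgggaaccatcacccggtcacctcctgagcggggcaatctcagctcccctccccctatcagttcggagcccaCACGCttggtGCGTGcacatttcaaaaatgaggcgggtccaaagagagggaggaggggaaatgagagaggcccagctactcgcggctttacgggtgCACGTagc
Aldoc, upstream of 2 windows, chr11:78322823-78323122, plus strand: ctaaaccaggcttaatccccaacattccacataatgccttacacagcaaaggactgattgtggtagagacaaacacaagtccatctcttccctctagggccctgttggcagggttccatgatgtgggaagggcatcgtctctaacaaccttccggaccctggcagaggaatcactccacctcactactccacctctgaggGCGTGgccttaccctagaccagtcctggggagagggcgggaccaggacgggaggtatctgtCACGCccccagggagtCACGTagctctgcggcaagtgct
The Slc16a3 window holds ACGTG 2 times close together before the start. The Ldha window holds ACGTG 5 times, both strands counted, and GCGTG 2 times. Each of its 2 CACGTG E-boxes reads the same on both strands, and any CACGTG counts as ACGTG 2 times here. Its other window (chr7:46846832-46847131), whose end does match a GENCODE transcript of the gene, holds ACGTG 0 times and GCGTG 2 times. The windows of Gapdh and of Aldoc, which moved in opposite directions, each hold ACGTG once and GCGTG 2 times. Such letters are common: of 32851 mouse windows of 300 bases, 19.6% hold ACGTG, 32.4% GCGTG, 43.8% either and 7.15% CACGTG. Of the 18 windows of the 10 genes, 15 hold either, but some windows of Pfkm and of Aldoa overlap and count the same site more than once. Members that did not pass hold such letters too. ACGTG and GCGTG occur 3 and 2 times for Slc16a1, 2 and 0 for Hk2 and 1 and 1 for Slc2a1. For Hk1, the downstream window holds them 2 and 3 times and the other 0 and 0. The Aldoa windows hold ACGTG 0, 1 and 1 times and GCGTG 0 times. Those of Pfkm hold ACGTG 3, 1, 0 and 0 times and GCGTG 0, 1, 1 and 0 times. The end of the Ldha window shown matched no GENCODE transcript of the gene, unlike the ends of the other 3 windows shown. These matches describe the letters and show no binding.

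Per length, the abundant members were the enzymes of the middle and end of the pathway. In WT, Aldoa stood at 174.6 ± 15.8 CPM per kilobase of annotated exon (SD, n = 3). Gapdh followed at 130.6 ± 1.75 and Ldha at 104.6 ± 6.57 CPM per kilobase. With the longest transcript as the length these 2 changed places, at 164.2 for Gapdh and 190.7 for Ldha. Slc16a1 came next at 33.5 ± 10.6 CPM per kilobase. Pfkm (17.6 ± 1.61) and Slc2a1 (14.4 ± 4.37 CPM per kilobase) did not differ beyond their spread, and Hk1 stood at 4.89 ± 0.333. Aldoc (2.23 ± 0.942), Hk2 (2.11 ± 0.249) and Slc16a3 (1.55 ± 0.103 CPM per kilobase) lay lowest, within or close to the spread of Aldoc. In cKO the order of Aldoa (261.1 ± 28.3), Gapdh (199.9 ± 16.1) and Ldha (147.5 ± 9.24 CPM per kilobase) was the same. Slc16a3 rose to 3.19 ± 0.420 CPM per kilobase there, and Aldoc at 0.325 ± 0.165 became the lowest.

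Of 14 tested other glycolytic enzymes, 4 were higher and 0 lower by edgeR, against 4.77% and 6.17% of all genes tested. DESeq2 called 5 and 0 and limma-voom 4 and 0, with 6 and 2 at an unadjusted edgeR p under 0.05. Their median log2 fold change was 0.22. The muscle forms of phosphoglycerate mutase and enolase moved most. Pgam2 stood at 20.8, 5.90 and 20.2 CPM in WT and at 62.7, 127.5 and 72.2 CPM in cKO (log2 2.48 ± 0.44, edgeR adjusted p = 0.00874). Eno3 stood at 58.9, 21.4 and 62.3 CPM in WT and at 142.9, 288.3 and 194.7 CPM in cKO (log2 2.13 ± 0.39, edgeR adjusted p = 0.00947). For both genes WT 2 was the lowest and cKO 2 the highest library, as for Acta1. Gpi1, the isomerase after hexokinase, rose 1.28-fold from 234.4 ± 3.99 to 300.2 ± 17.9 CPM (edgeR adjusted p = 0.0272), a call that of the fits leaving out 1 library held only without WT 3 (edgeR adjusted p from 0.0541 to 0.139 in the others). Tpi1, which interconverts the triose phosphates, rose 1.29-fold (edgeR adjusted p = 0.0467), a call lost in all 6 such fits (edgeR adjusted p from 0.0573 to 0.144) and with no filter on low counts (0.0515). Pgk1 (log2 0.25 ± 0.10) and Pkm (0.27 ± 0.09), the kinases that yield ATP, lay higher in all cKO libraries and did not pass (edgeR adjusted p = 0.149 and 0.107). Ldhb, the heart form of lactate dehydrogenase, lay lower in all cKO libraries and did not pass (log2 -0.25 ± 0.10, edgeR adjusted p = 0.144). Eno1, at 6.57 to 12.6 CPM, is uncertain because the near-identical Eno1b held 42.8 to 59.9 CPM.

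**Figure D2:**
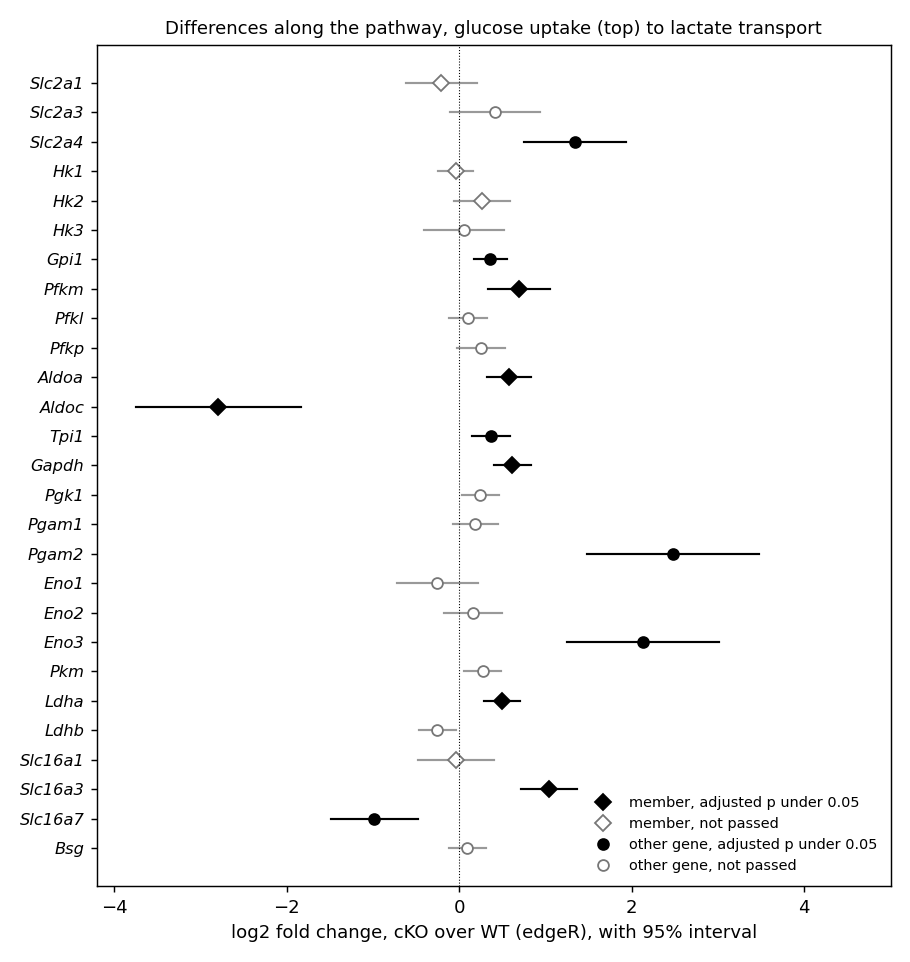
The log2 fold change of cKO over WT (horizontal axis, edgeR) with its 95% interval for transporters and enzymes in pathway order, diamonds for the 10 genes described and circles for others, filled where the adjusted p was under 0.05. Pgam2 (2.48) and Eno3 (2.13) lie farthest to the right and Aldoc (-2.79) farthest to the left.

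Among 10 other transporters and MCT partners, 1 was higher and 1 lower, against 4.77% and 6.17% of all genes tested. Slc2a4, the insulin-responsive GLUT4 of muscle and fat, rose 2.54-fold from 6.86, 5.53 and 8.29 CPM in WT to 11.5, 23.4 and 17.7 CPM in cKO (edgeR adjusted p = 0.0122), a call lost without cKO 3 (edgeR adjusted p = 0.0553). Slc16a7, which encodes the high-affinity MCT2, fell 1.98-fold from 4.94 ± 0.420 to 2.50 ± 0.443 CPM (edgeR adjusted p = 0.023), a call lost without cKO 1, cKO 3 or WT 2 (edgeR adjusted p = 0.0585, 0.0751 and 0.0856). Bsg, the chaperone basigin that carries MCT1 and MCT4 to the membrane, did not pass (log2 0.09 ± 0.09). Of 10 regulators of glycolytic flux, Fbp2, the muscle fructose bisphosphatase, and Prkaa2, an AMP-activated kinase subunit abundant in muscle, were higher (log2 2.32 ± 0.50 and 1.43 ± 0.35) by edgeR, while DESeq2 called 3 higher, limma-voom 1, and 4 were higher at an unadjusted edgeR p under 0.05. The count of lower genes was 0 in each of these. Both calls were lost without cKO 2 or cKO 3 (edgeR adjusted p = 0.0676 and 0.0706 for Fbp2, 0.0879 and 0.0779 for Prkaa2), and that of Prkaa2 also without WT 1 or WT 2 (edgeR adjusted p = 0.0914 and 0.0886) and with limma-voom (adjusted p = 0.0568). Of 13 genes of glycogen metabolism, 3 were higher: Pygm, the muscle glycogen phosphorylase (log2 2.12 ± 0.37), Phkg1, the muscle catalytic subunit of phosphorylase kinase (2.08 ± 0.44), and Pgm2, a phosphoglucomutase (0.73 ± 0.16). Pygm held its call whichever library was left out. Phkg1 lost its call without cKO 2, cKO 3 or WT 2 (edgeR adjusted p from 0.0566 to 0.0618), and Pgm2 without these or WT 1 (from 0.0533 to 0.0776).

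Of 14 genes that route pyruvate into mitochondria, 1 was called, against 10.9% of all genes tested. Pdp2, a phosphatase that activates pyruvate dehydrogenase, was lower at 4.69 ± 1.34 CPM in WT and 1.84 ± 0.745 CPM in cKO (edgeR adjusted p = 0.0418), a call that survived the removal of WT 3 and of no other library (edgeR adjusted p from 0.0642 to 0.124 in the other 5 fits), and that was lost with total counts (0.0561). Pdha1, the catalytic subunit of pyruvate dehydrogenase, had a log2 fold change of 0.0086 ± 0.0852, and the pyruvate carriers Mpc1 and Mpc2 had -0.23 ± 0.13 and -0.031 ± 0.115. Genes of the hypoxia response, many of which are known to rise with glycolytic genes, moved both ways. Of 13, 1 was called higher and 3 lower, against 4.77% and 6.17% of all genes tested. Ddit4, an inhibitor of mTORC1 signalling, rose 1.52-fold from 46.7 ± 3.50 to 71.1 ± 6.65 CPM (edgeR adjusted p = 0.00611). Hif1a, the oxygen-regulated transcription factor, fell 1.30-fold (edgeR adjusted p = 0.0164), P4ha1, a collagen prolyl hydroxylase, 1.29-fold, and Ndrg1, a gene also tied to myelin and hereditary neuropathy, 1.74-fold. The calls of Hif1a and P4ha1 were lost without cKO 2 (edgeR adjusted p = 0.0654 and 0.0619), without cKO 3 (0.0758 and 0.0897) and with total counts (0.0793 and 0.0786). That of Hif1a was also lost without WT 2 (edgeR adjusted p = 0.0705), and that of Ndrg1 without cKO 3 (0.0672).

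Summed over isozymes per kilobase, each step but enolase from glucose phosphate isomerase to pyruvate kinase lay higher in every cKO library. Enolase was left out, its Eno1 reads being uncertain. For CPM of single genes, every cKO library lay above every WT library in 15.3% of all genes tested. Pgk1 and Pkm did not pass the test, as given above. The cKO mean was 1.77 times the WT mean for phosphoglycerate mutase, 1.53 for Gapdh, 1.49 for phosphofructokinase, 1.48 for aldolase and from 1.19 to 1.29 for the 4 steps of 1 gene each, Gpi1, Tpi1, Pgk1 and Pkm (ratios of means, without a test). The rise for phosphoglycerate mutase was mostly that of its muscle form, Pgam2 going from 18.6 ± 10.1 to 104.1 ± 41.7 CPM per kilobase, while Pgam1 overlapped between groups at 113 ± 10.1 in WT and 128.5 ± 16.4 CPM per kilobase in cKO (edgeR adjusted p = 0.373). Muscle RNA was higher in the same libraries, as given above, and its part in these sums was not tested. At both ends of the pathway the groups overlapped: the ratio was 1.07 for glucose transport, 1.04 for hexokinase, 1.01 for lactate dehydrogenase and 1.02 for monocarboxylate transport. These ratios use the length of annotated exon, and sums with another length were not made. For glucose transport the overlap came from WT 3 (22.1 CPM per kilobase). WT 1 and WT 2 (14.7 and 13.3) lay below every cKO library (16.8 to 19.3). The same held for monocarboxylate transport, with 47.55 in WT 3, 30.3 and 28.6 in WT 1 and WT 2, and 32.8 to 39.4 in cKO. Within glucose transport, Slc2a1 alone overlapped even without WT 3 (43.3 and 40.0 CPM in WT 1 and WT 2, 42.3 to 45.8 CPM in cKO). Slc2a4, the GLUT4 of muscle and fat, went from 1.98 ± 0.398 in WT to 5.04 ± 1.72 CPM per kilobase in cKO. The part of muscle RNA in that rise was not tested.

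Shares within a family do not depend on the scaling of libraries. Reads per kilobase of Ldha made up 30.9%, 29.0% and 28.0% of Ldha and Ldhb in WT 1, 2 and 3 and 39.3%, 42.8% and 41.3% in cKO 1, 2 and 3. The balance lay nearer to Ldha in every cKO library, by 11.8 percentage points. Summed over both subunits, lactate dehydrogenase stood at 356.7 ± 11.9 CPM per kilobase of annotated exon in WT and 359.2 ± 26.9 in cKO. With this length the sum differed by less than the spread. The sum depends on the length: annotated exon has 3310 bases for Ldha and 1570 for Ldhb, the longest transcripts 1815 and 1304. Longest transcripts give Ldha more weight, and a sum with them was not made. Pfkm made up 74.6% ± 0.914 of the phosphofructokinase family in WT and 81.0% ± 2.48 in cKO (SD, n = 3). Slc16a3 made up 4.65% ± 1.39 of Slc16a1, Slc16a3 and Slc16a7 in WT and 8.96% ± 1.99 in cKO, and Slc16a1 kept 94.1% ± 1.69 and 90.5% ± 2.13. Slc2a1 made up 85.9% ± 1.79 of Slc2a1, Slc2a3 and Slc2a4 in WT and 69.8% ± 7.81 in cKO, with Slc2a4 going from 12.1% ± 1.33 to 27.8% ± 7.69. The share of Hk1 in Hk1 and Hk2 overlapped between groups (69.8% ± 3.26 and 65.3% ± 1.84, exact two-sided permutation p = 0.2). Of 16 shares tested, 14 did not overlap between groups. Each of these had an exact two-sided permutation p of 0.1, the smallest that 3 against 3 allows (adjusted 0.114), so none passed. The 14 are not independent, because a gene whose share rises lowers the shares of its partners. For CPM of single genes, the groups did not overlap in 31.1% of all genes tested.

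**Figure D3:**
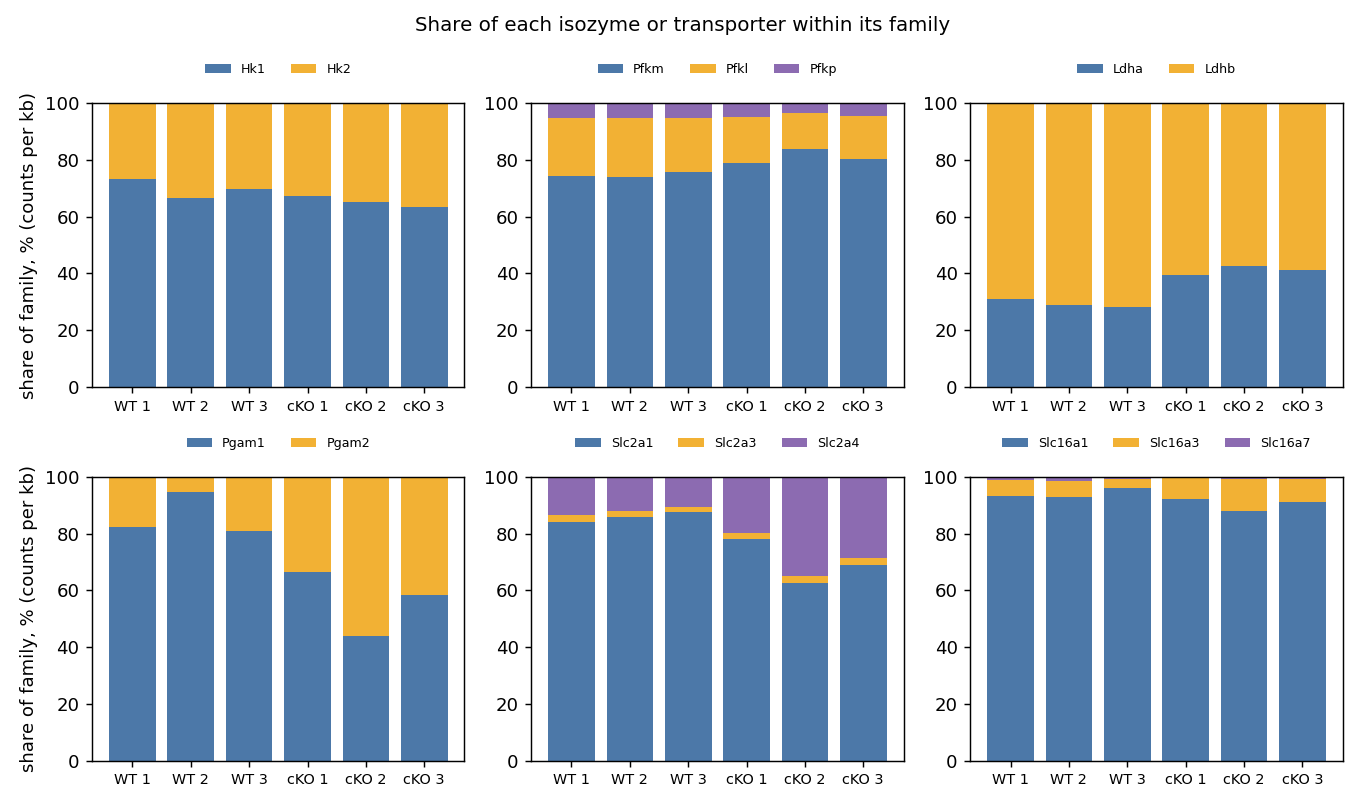
Share of each gene in the reads per kilobase of its family (vertical axis, percent) in each of the 6 libraries, as stacked bars that sum to 100 in 6 families. Ldha takes 28.0% to 30.9% in WT and 39.3% to 42.8% in cKO, and Slc2a4 and Pgam2 take larger shares in every cKO library than in any WT library.

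Each called gene was set beside muscle RNA in every library. Within WT, Acta1 was 3.81-fold higher in WT 1 than in WT 2, while Aldoa was 1.10-fold, Pfkm 1.17-fold, Slc16a3 1.06-fold, Gapdh 1.03-fold and Ldha 1.02-fold higher. Within cKO, Acta1 was 2.20-fold higher in cKO 2 than in cKO 1, while Pfkm was 1.58-fold, Slc16a3 1.26-fold, Aldoa 1.14-fold, Gapdh 1.06-fold and Ldha 1.02-fold higher. Pfkm, Slc16a3 and Aldoc each had the order of Acta1 within cKO, with cKO 1 lowest, cKO 3 between and cKO 2 highest. Ldha differed little between these pairs of libraries. Aldoc was 2.86-fold higher in cKO 2 than in cKO 1 and lower in all cKO libraries than in any WT library.

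**Figure D4:**
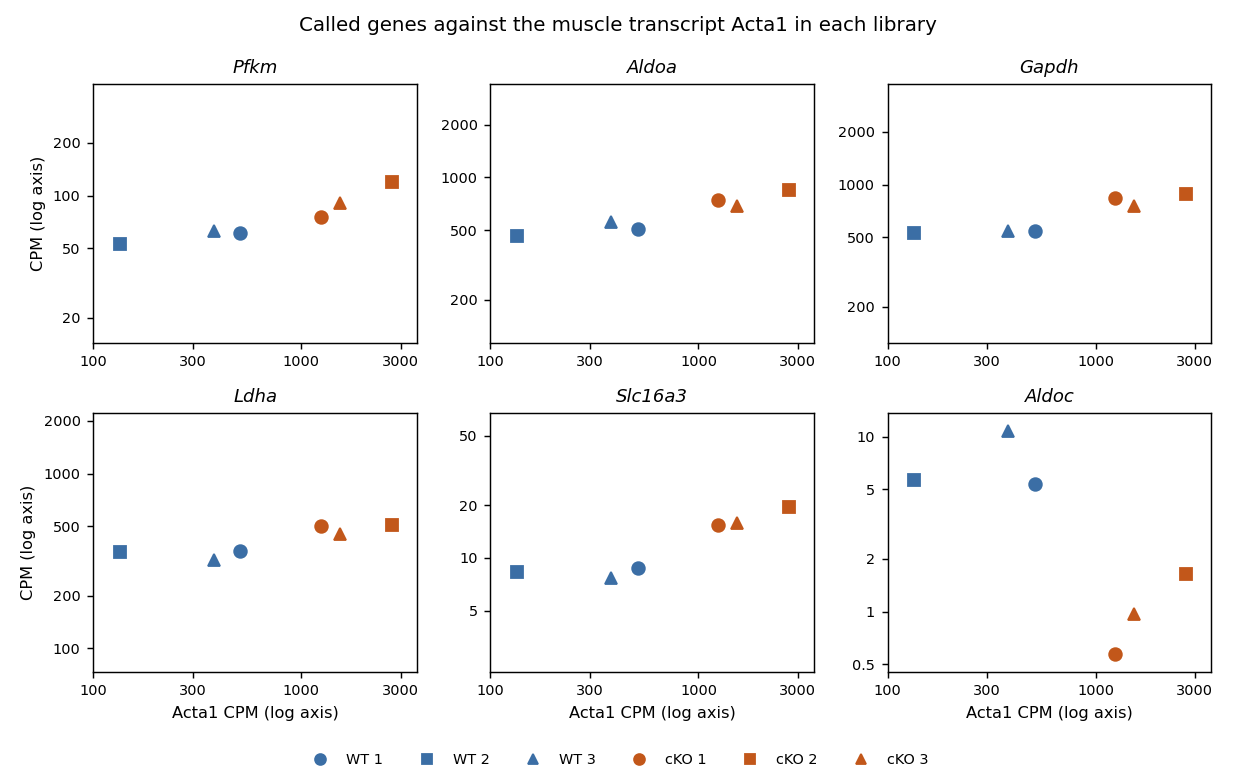
CPM of the 6 called genes (vertical log axes, each spanning the same fold range) against CPM of Acta1 (horizontal log axis) in each library, WT in blue and cKO in orange. Gapdh and Ldha are nearly level across the 3 WT libraries, in which Acta1 goes from 133.8 to 509.6 CPM, and Pfkm climbs across the cKO libraries.

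With the mean log2 CPM of Acta1 and Ttn as a covariate, 0 of the 10 genes were called, and 0% of all 14789 genes tested (edgeR; 992 genes at an unadjusted p under 0.05). This level ran from 5.14 to 7.07 in WT and from 8.52 to 9.35 in cKO, so it does not overlap between the groups. The standard errors of the 10 genes grew. Muscle level and genotype therefore cannot be told apart in full. The estimates themselves moved unequally. Pfkm went from 0.69 ± 0.16 to 0.093 ± 0.312 and Aldoa from 0.58 ± 0.11 to 0.26 ± 0.26 on the log2 scale. Gapdh went from 0.61 ± 0.09 to 0.53 ± 0.24, Ldha from 0.50 ± 0.09 to 0.51 ± 0.24 and Slc16a3 from 1.04 ± 0.14 to 0.84 ± 0.35. Aldoc went from -2.79 ± 0.42 to -3.78 ± 0.90. Of the 10 genes, Aldoc and Slc16a3 had an unadjusted p under 0.05 in that fit (edgeR adjusted p = 0.23 and 0.713). Among the muscle forms, Pgam2 went from 2.48 ± 0.44 to -0.13 ± 0.32 and Eno3 from 2.13 ± 0.39 to -0.13 ± 0.31, with smaller standard errors. Pygm went from 2.12 ± 0.37 to 0.021 ± 0.375. The covariate is itself made of muscle transcripts.

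**Figure D5:**
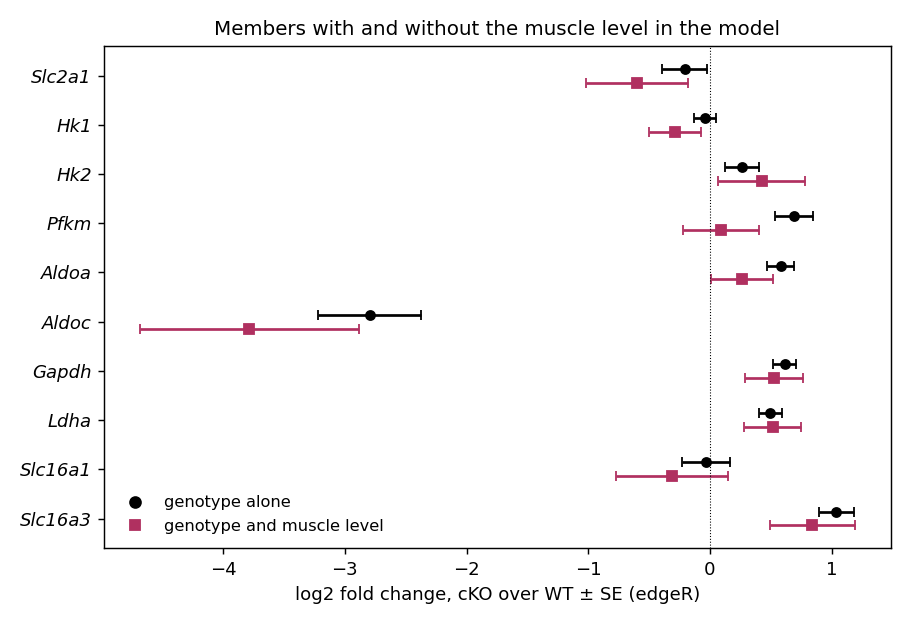
The log2 fold change of cKO over WT ± SE (edgeR) for the 10 genes, with genotype alone (black circles) and with the muscle level added (red squares). Ldha moves from 0.50 to 0.51, Gapdh from 0.61 to 0.53 and Pfkm from 0.69 to 0.093, all with wider errors.

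The genes whose pattern over the 6 libraries lay nearest to each called gene were found by Euclidean distance of centred log2 CPM, with a minimum of 3 for the mean log2 CPM. Nearest to Aldoc were Chst2 (distance 0.349), Ugt8a, the enzyme that makes the galactolipids of myelin (0.404), and Pmp2, the lipid-binding myelin protein P2 (0.420). Nearest to Aldoa were Gm12070, Pdlim1 and Gapdh, with distances of 0.131, 0.177 and 0.183. Nearest to Gapdh were Gpx3 (0.115), Gm12070 (0.117) and Gnpda1 (0.171). Both the Aldoa and the Gapdh list hold Gm12070, the near-identical copy of Gapdh. Nearest to Ldha were Rara (0.0457), Tmem132a (0.140) and Vwa1 (0.153). Among the nearest to Pfkm were Ehbp1l1 (0.0934) and Ppapdc3 (0.205). For Slc16a3 they were Ston2 (0.226), Cadm2 (0.236) and Tnfrsf12a (0.319). All these distances rest on 6 libraries in 2 groups.

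Of 3 tested erythroid, 5 macrophage, 4 fibroblast and 5 dividing cell markers, 0 were called, whether by edgeR, DESeq2 or limma-voom, and 0 reached an unadjusted edgeR p under 0.05. Leaving out 1 library gave 1 erythroid call without WT 1 and 1 macrophage call without WT 3, both higher. Summed levels were 52.6 to 117.7 CPM in WT and 93.9 to 125.0 CPM in cKO for erythroid markers, with Hbb-bt at 0 in all libraries, and 219.0 to 306.0 and 248.0 to 267.4 CPM for macrophage markers. They were 6951 to 8579 and 7887 to 8395 CPM for fibroblast markers. Dividing cell markers summed to 379.9 to 696.8 CPM in WT, WT 3 being the lowest, and to 630.1 to 639.2 CPM in cKO.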

How the data were processed

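The authors deposited 1 table of raw counts by gene symbol for each library, not normalized. Reads were aligned to mm10 with TopHat2 2.0.13 and counted with HTSeq, per the submitters' processing notes. Annotation, strand setting and handling of reads with several placements were not given in the sources used here, so overlapping antisense genes (such as Hk1os within Hk1, or Senp1 at Pfkm) cannot be told apart. Closing lines of the files stayed out of all sums (no gene 12.07% to 14.26%, ambiguous 1.635% to 2.818% of counts). The design text counts 3 mice per group. Every library held RNA marks of both sexes, however, so whether each library came from 1 mouse is not known from the sources used here. No 2 libraries of the same group agreed within counting noise (chi-square per degree of freedom at least 12.9).

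Genes were filtered by filterByExpr (minimum count 10), scaled by TMM and tested with edgeR 4.0.16 in R 4.3.3, group as the only term. Standard errors (SE) were derived from the fold change and its F statistic. A count of 3 corresponds to 0.0649 to 0.117 CPM, counting error only. Exon lengths and positions came from GENCODE M21 (GRCm38, the assembly of mm10). Alternatives used DESeq2 1.42.0, limma 3.58.1 (voom), other scaling and filters, the replicate number, muscle level and left-out libraries. The pipeline was tested on simulated data.

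The members and gene lists were chosen with earlier results of these data known. The 10 genes, the targeted genes, Acta1 and Ttn were always named. Others were the first 4 by p of a pathway list, the first 2 of a cell marker list, family partners, and the 3 genes nearest in pattern to each called member. All other named genes (such as Bsg, Pdha1, Mpc2, Gm12070, Eno1b, Xist and Ddx3y) were chosen after their values were seen, and some genes given by the rule are not named.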

Additional observations from a re-analysis of the deposited data

How the results depend on the processing

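Slc16a3, Gapdh, Ldha and Aldoc kept their calls under every alternative except the muscle covariate. With that covariate, log2 fold changes (edgeR adjusted p) were 0.093 for Pfkm (0.988), 0.26 for Aldoa (0.915), -3.78 for Aldoc (0.23), 0.53 for Gapdh (0.763), 0.51 for Ldha (0.778) and 0.84 for Slc16a3 (0.713). Genes called changed went from 1618 to 0, the higher from 706 and the lower from 912 to 0, and the members from 5 higher and 1 lower to 0 and 0. That covariate does not overlap between groups, and it leaves 1 degree of freedom fewer.

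With total counts, 1273 genes were higher and 606 lower (67.7% and 32.3% of the calls against 43.6% and 56.4%), the median of all genes shifting by 0.124. Hk1 and Slc16a1 then turned to 0.087 and 0.10, and Slc16a1 turned to 0.0035 with limma-voom; the cause was not tested. With the replicate block, Slc16a1 was 0.0040, Pfkm lost its call (0.67, edgeR adjusted p = 0.0557), 461 genes were higher against 706, and 1104 were called in all; of other genes named, Wwtr1, Gpi1, Tpi1, Slc16a7, Prkaa2, Pdp2, Pgm2, Phkg1, Hif1a, P4ha1 and Itgb4 lost theirs. The numbers did not pair the libraries: the correlations of same-numbered deviations were -0.27, -0.14 and 0.08.

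Leaving out 1 library gave 735 to 2195 genes called, 276 to 1075 higher and 459 to 1120 lower, each lowest without cKO 3 and highest without WT 3; the log2 difference in muscle level ran from 2.06 to 3.02. Members called higher ranged from 3 (without WT 1 or WT 2) to 5. Log2 fold changes ranged from 0.49 to 0.83 for Pfkm, from 0.49 to 0.64 for Aldoa, from -0.35 to 0.042 for Slc2a1 (the latter without WT 3) and from -0.18 to 0.23 for Slc16a1 (above 0 without WT 3, and at 0.045 without cKO 2). The 14 family shares whose groups did not overlap kept their direction with the longest transcript as the length.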
